A study of Arabidopsis thaliana with 7 samples.

Results

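The 10 genes described here encode 3-ketoacyl-CoA synthases (KCS) that are known from leaves and the epidermis of Arabidopsis thaliana: KCS1, KCS2, KCS3, KCS4, KCS5, KCS6, KCS8, KCS9, KCS11 and KCS20. They were chosen by locus, and a probe was counted to a gene when the RefSeq transcript it is named after belongs to that locus. This gave 22 probes for 10 genes, out of 43603 probes and 25347 named genes on the array. KCS6 had 6 probes, KCS20 had 4, KCS9 had 3, KCS2 and KCS5 had 2 each, and the other 5 genes had 1 each. None of the 10 genes neighbours another in the RefSeq gene table.

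A 3-ketoacyl-CoA synthase is the condensing enzyme of the fatty acid elongase in the endoplasmic reticulum. It joins a fatty acyl-CoA to malonyl-CoA, and a reductase (KCR1), a dehydratase (PAS2) and a further reductase (CER10) complete each round of elongation. Which synthase is present largely sets how long the acyl chain becomes, and the products go into cuticular waxes, suberin, sphingolipids and seed oil.

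The arrays compared whole seedlings of accession Columbia-0 at 3 weeks of age, 4 arrays from 35S:MYB106VP16 and 3 from wild type (wt). The transgenic plants express MYB106, a MIXTA-like MYB factor of the epidermis, fused to the VP16 activation domain under the viral 35S promoter, which is active in most cell types. The labels name no line or clone, and give no transgene for the wild type. All plants grew on MS agar with sucrose, and several seedlings from a shared plate made up an RNA sample, so nothing shows that replicates were grown apart. The p-values thus cover the spread among these RNA samples, part of which may be technical. Each genotype had a slide and a scan of its own, so slide and genotype cannot be told apart.

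Levels are given as log2 of the background-subtracted signal relative to the array's 75th percentile, so that 0 is a signal equal to that percentile. A level describes 1 probe and is not compared between probes. Differences are 35S:MYB106VP16 minus wild type on the same log2 scale, with limma's standard error (SE), and a probe was called where limma's Benjamini-Hochberg adjusted p over all 33215 tested probes was under 0.05. All 22 probes of the 10 genes were well above background on all 7 arrays, so none was lost to the filter on dim probes and no fold given for them is a bound.

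The tagged gene itself was checked first. The brighter MYB106 probe stood at 3.08, 3.29, 3.48 and 2.56 in 35S:MYB106VP16, against -2.53, -2.86 and -2.41 in wild type. The difference was 5.70 ± 0.22 (SE; limma adjusted p = 2.65e-05), with replicate 4 the lowest of the transgenic arrays. The 75th percentile of the signal ranged over 2213 to 2858 in 35S:MYB106VP16 and over 2492 to 2677 in wild type, and no spot was saturated. All 6 leaf and photosynthesis markers and all 5 root endodermis markers on the array were well above background on every array. None of the 3 seed markers passed the filter on dim probes.

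Replicate 4 of 35S:MYB106VP16 was often the lowest of the 4 transgenic arrays. This held for 17 of the 22 KCS probes and for 28.7% of all tested probes, and probes of a gene share their RNA. It was also lowest for some genes of the same pathway outside the 10, among them KCS10, KCS12, KCR1 and PAS2. Others were lowest elsewhere, such as KCR2, CER10 and KCS17 on replicate 2, and KCS13 and KCS14 on replicate 3. Of all probes called higher, 21.9% were lowest on replicate 4. The mean correlation of replicate 4 with its own group over all tested genes was 0.989, against 0.990 for each other transgenic array, and genes are not independent replicates. Results that change without it are given both ways.

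Over all 22 probes, 7 were higher in 35S:MYB106VP16, 6 were lower and 9 were not called. Of all tested probes, 26.8% were higher and 27.1% lower, 53.9% in all, so the share of KCS probes called is close to that of the array as a whole. The groups did not overlap for 15 of the 22 probes, against 58.5% of all tested probes. Of these, 7 were higher and 8 lower, against 28.9% and 29.6% of all tested probes. A called difference of at least 2-fold was found for 3 KCS probes, 2 higher and 1 lower, and for 12.5% of all tested probes. The median difference was 0.07 for the 22 probes and -0.0042 for all tested probes, and the median absolute difference 0.57 and 0.37. Without 35S:MYB106VP16 replicate 4, 11 KCS probes were higher and 5 lower, against 8579 and 8912 of all probes. The 11 include all 6 probes of KCS6. Without wild type replicate 3, 3 KCS probes were lower, and fewer of all probes were lower too than the 8997 with all arrays. Without 35S:MYB106VP16 replicate 2, wild type replicate 1 or wild type replicate 2, 4 KCS probes were higher. Of all probes, 8328, 8456 and 7129 were then higher, in the same order.

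**Figure D1:**
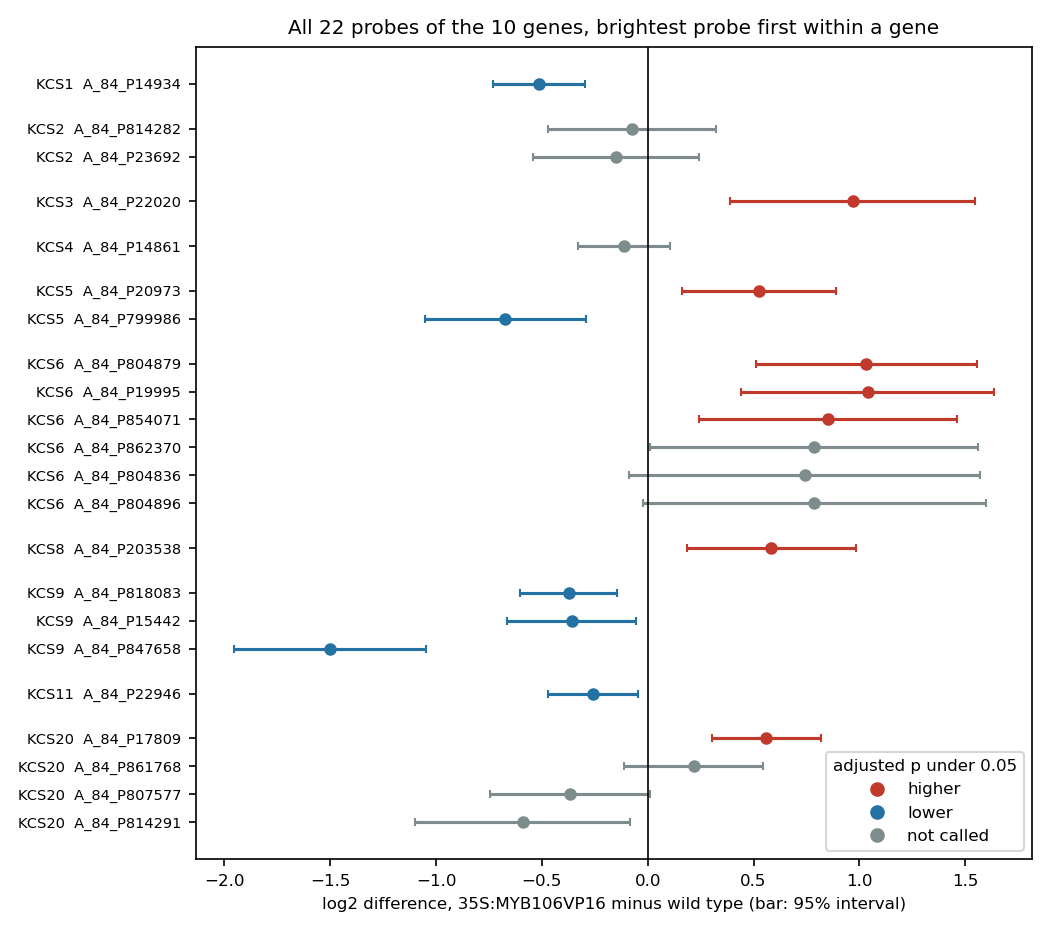
Difference in log2 signal, 35S:MYB106VP16 minus wild type, for each of the 22 probes (x axis), with its 95% interval from limma and genes from KCS1 down to KCS20. Red points are called higher (7 probes), blue points lower (6) and grey points not called (9); KCS6 lies to the right throughout, and KCS5 and KCS20 have probes on either side of 0.

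KCS6 and KCS3 had the largest rises among the 10 genes, and wax synthases stood on both sides, with KCS1 lower. KCS6 (AT1G68530, also CUT1 or CER6), the main condensing enzyme for the waxes of stems and leaves, stood at 4.37, 4.33, 4.58 and 3.59 in 35S:MYB106VP16 by its brightest probe. In wild type the same probe stood at 3.25, 3.06 and 3.24. The lowest transgenic array thus lay above the highest wild-type array, and replicate 4 lay nearest to them. KCS6 was 2.05-fold higher (log2 1.03 ± 0.22 SE; limma adjusted p = 0.00675), each gene being taken by its brightest probe. With spike-in scaling the difference was 0.47 and did not pass (limma adjusted p = 0.0951).

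The 6 KCS6 probes name 2 RefSeq transcripts of the gene. The 3 probes named after NM_179530 rose by 0.85 to 1.04 on the log2 scale, and the 3 named after NM_105524 differed by 0.74 to 0.79 without passing (limma adjusted p = 0.0795 to 0.114). Averaged over the 3 probes of each transcript, NM_179530 stood at 3.62, 3.53, 3.81 and 2.71 in 35S:MYB106VP16, against 2.52, 2.32 and 2.49 in wild type. NM_105524 stood at -0.45, -0.53, -0.38 and -1.82 in 35S:MYB106VP16, against -1.41, -1.67 and -1.63 in wild type. On replicate 4 each NM_105524 probe lay below all 3 wild-type arrays, and on the other 3 transgenic arrays each lay above all of them. Without that array all 6 probes passed, with differences of 1.09 to 1.29 (limma, largest adjusted p = 0.00102). The dimmest of the NM_179530 probes lost its call when any other array was left out (limma adjusted p = 0.0554 to 0.0844), while the other 2 kept theirs without each array in turn. Probe sequences were not used here, so which parts of either transcript the probes read is unknown.

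KCS5 (AT1G25450, also CER60), the closest relative of KCS6 in wax synthesis, gave opposite answers by its 2 probes. The brighter probe stood at 2.99, 3.04, 3.26 and 2.56 in 35S:MYB106VP16, against 2.46, 2.40 and 2.46 in wild type. The dimmer probe stood at -1.70, -1.79, -1.80 and -2.36 in 35S:MYB106VP16, against -1.31, -1.26 and -1.15 in wild type. Neither probe's groups overlapped, and their directions were opposite on every transgenic array. The brighter probe was 1.44-fold higher (log2 0.53 ± 0.16 SE; limma adjusted p = 0.0235) and the dimmer 1.59-fold lower (log2 -0.67 ± 0.16 SE; limma adjusted p = 0.0107). The call of the brighter probe was lost without 35S:MYB106VP16 replicate 1 or 2, or without any wild-type array (limma adjusted p = 0.0503 to 0.0703), and its difference was -0.04 when arrays were scaled to the spike-in transcripts. Averaged over both probes KCS5 differed by -0.07 (limma adjusted p = 0.706), so no direction is given for the gene.

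KCS3 (AT1G07720), which has been reported to restrain wax synthesis through KCS6, rose as well. Its probe stood at 0.87, 0.83, 1.32 and 0.12 in 35S:MYB106VP16, against -0.17, -0.20 and -0.18 in wild type. The 3 wild-type arrays lay close together, while the transgenic arrays spread over more than 1 log2 unit. KCS3 was 1.96-fold higher (log2 0.97 ± 0.25 SE; limma adjusted p = 0.0135), and passed without each array in turn. With spike-in scaling the difference was 0.40 and did not pass (limma adjusted p = 0.171).

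KCS8 (AT2G15090) stood at 3.42, 3.70, 3.91 and 3.19 in 35S:MYB106VP16, against 2.88, 2.97 and 3.07 in wild type. The groups did not overlap, with replicate 4 again the lowest transgenic array. The gene was higher (log2 0.58 ± 0.17 SE; limma adjusted p = 0.0227), and its call was lost without 35S:MYB106VP16 replicate 2, wild type replicate 1 or wild type replicate 2 (limma adjusted p = 0.0533, 0.0691 and 0.0619). With spike-in scaling the difference was 0.02.

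KCS1 (AT1G01120), a synthase of wax formation with a broad substrate range, was lower. It stood at 1.89, 1.73, 1.84 and 1.74 in 35S:MYB106VP16, against 2.48, 2.25 and 2.21 in wild type. All 4 transgenic arrays lay below all wild-type arrays, and replicate 4 did not stand apart from the other transgenic arrays for this gene. The signal of KCS1 was lower by 1.43-fold, with a log2 difference of -0.51 ± 0.09 (SE; limma adjusted p = 0.00313), and passed without each array in turn. In the authors' series table it stood at -0.31 and did not pass (limma adjusted p = 0.0659).

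**Figure D2:**
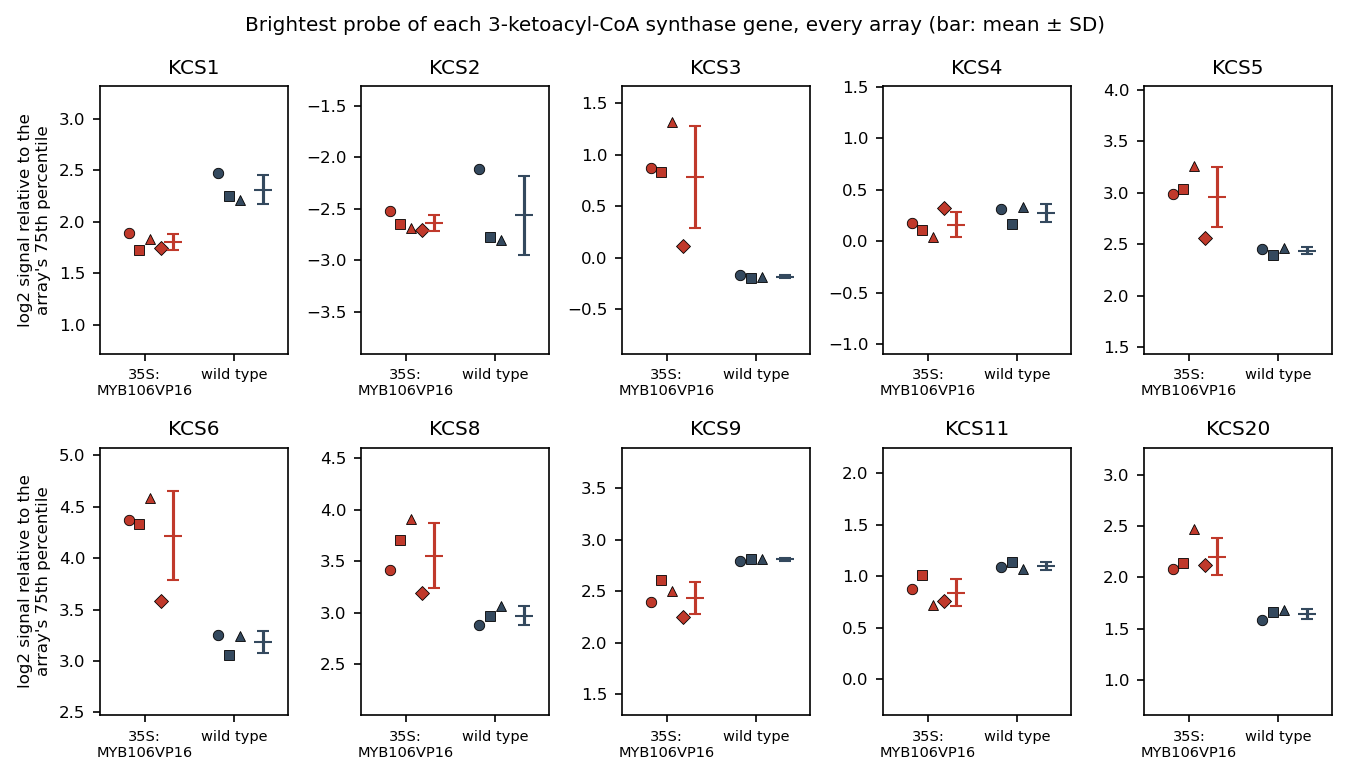
Log2 signal of the brightest probe of each gene relative to the array's 75th percentile (y axis, the same span in each panel), with 35S:MYB106VP16 in red and wild type in dark blue; each symbol is an array (circle, square, triangle and diamond for replicates 1 to 4) and the bar beside them is the mean ± SD. KCS6 and KCS3 separate most, with the diamond of replicate 4 nearest to wild type, and KCS1 separates downward.

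KCS2 and KCS20 are close relatives that act together in the suberin of roots and in wax. KCS2 (AT1G04220, also known as DAISY) was not called by either probe. Its brighter probe stood at -2.52, -2.65, -2.69 and -2.70 in 35S:MYB106VP16, against -2.12, -2.77 and -2.80 in wild type. Wild type replicate 1 stood above all other arrays, and the other wild-type arrays lay below all transgenic arrays. The difference was -0.08, with a 95% interval of -0.47 to 0.32 (limma adjusted p = 0.725), and without wild type replicate 1 it was 0.15 (limma adjusted p = 0.201). The dimmer probe stood at -2.73, -2.81, -2.94 and -2.95 in 35S:MYB106VP16, against -2.28, -2.88 and -2.96 in wild type, with the same array highest. Its difference of -0.15 did not pass either (95% interval -0.54 to 0.24; limma adjusted p = 0.482).

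KCS20 (AT5G43760) differed in direction between its 4 probes. The brightest probe stood at 2.08, 2.14, 2.47 and 2.12 in 35S:MYB106VP16, against 1.58, 1.66 and 1.68 in wild type. This probe was 1.48-fold higher (log2 0.56 ± 0.11 SE; limma adjusted p = 0.00447), passed without each array in turn, and stood at a difference of -0.0043 with spike-in scaling. The dimmest probe stood at -4.58, -4.15, -4.33 and -5.13 in 35S:MYB106VP16, against -3.91, -3.99 and -3.97 in wild type. Its groups did not overlap either, but in the other direction, with a difference of -0.59 that did not pass (limma adjusted p = 0.0520). It passed without 35S:MYB106VP16 replicate 2 or replicate 4 (limma adjusted p = 0.0248 and 0.0329), with normexp (0.0102), with spike-in scaling (0.00166) and among probes well above background on every array (0.0441). The other 2 probes differed by 0.22 and -0.37 and did not pass. The second brightest passed without 35S:MYB106VP16 replicate 4 (0.34; limma adjusted p = 0.0103). Averaged over its 4 probes KCS20 differed by -0.05 (limma adjusted p = 0.804).

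KCS9 (AT2G16280), which makes precursors for wax, suberin and membrane lipids, was lower by all 3 probes. The brightest stood at 2.39, 2.61, 2.50 and 2.25 in 35S:MYB106VP16, against 2.80, 2.82 and 2.82 in wild type. The log2 difference was -0.37 ± 0.10 (SE; limma adjusted p = 0.0150), a fall of 1.29-fold, and did not pass without wild type replicate 3 (limma adjusted p = 0.0537). Nor did it pass with median scaling (-0.25; limma adjusted p = 0.0607) or in the authors' series table (-0.16; limma adjusted p = 0.404). The dimmest probe stood at -1.88, -1.73, -2.40 and -2.50 in 35S:MYB106VP16, against -0.69, -0.60 and -0.58 in wild type. Every transgenic array lay more than 1 log2 unit below every wild-type array on that probe, with a fall of 2.83-fold, or -1.50 ± 0.19 on the log2 scale (SE; limma adjusted p = 0.000829). The probe between them stood at 2.09, 2.35, 1.81 and 1.91 in 35S:MYB106VP16, against 2.42, 2.40 and 2.38 in wild type. It was 1.28-fold lower (limma adjusted p = 0.0498), a call that was lost without any array but 35S:MYB106VP16 replicate 2 (limma adjusted p = 0.0780 to 0.115). All 3 probes kept their direction under each scaling.

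KCS11 (AT2G26640) stood at 0.88, 1.01, 0.72 and 0.76 in 35S:MYB106VP16, against 1.09, 1.14 and 1.07 in wild type. The groups did not overlap, and the log2 difference was -0.26 ± 0.09 (SE; limma adjusted p = 0.0440), a fall of 1.20-fold. This call too was lost without any array but 35S:MYB106VP16 replicate 2 (limma adjusted p = 0.0715 to 0.132). It was lost with normexp (-0.22; limma adjusted p = 0.0660), with median scaling (-0.14; limma adjusted p = 0.206) and in the authors' series table (-0.05; limma adjusted p = 0.809) as well. KCS4 (AT1G19440), which has been linked to very-long-chain fatty acids of storage lipids under stress, stood at 0.17, 0.11, 0.04 and 0.32 in 35S:MYB106VP16, against 0.32, 0.17 and 0.33 in wild type. The groups overlapped, and the difference of -0.11 did not pass (95% interval -0.33 to 0.10; limma adjusted p = 0.333).

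In some of the genes the distance between probes ran with genotype. In KCS5, KCS9 and KCS20 the dimmest probe lay further below the brightest in 35S:MYB106VP16 than in wild type, by 1.20, 1.13 and 1.15 log2 units. In KCS6 it did so by 0.25 and in KCS2 by 0.07, with overlapping groups in both. For KCS9 the distance was -4.27, -4.35, -4.90 and -4.74 in 35S:MYB106VP16, against -3.49, -3.42 and -3.40 in wild type.

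The same shift, though smaller, ran through the other genes on the array, a measure that was chosen after these values were seen. Over 6156 other genes with several tested probes, the median distance of the dimmest probe from the brightest was -1.86, -1.86, -1.91 and -1.996 on the 35S:MYB106VP16 arrays. It was -1.70, -1.66 and -1.67 on the wild-type arrays. Replicate 4 had the widest distance, and the groups did not overlap. A widening by more than 1 log2 unit was found in 5.30% of those genes, and in 3 of the 5 KCS genes with several probes. The sets are not matched, since KCS5, KCS9 and KCS20 already had mean distances of -3.68, -3.44 and -5.60 in wild type. Of 6161 genes with several tested probes, KCS genes included, 4.93% had probes called in opposite directions, and KCS5 was the member among them. Probe positions and RNA integrity were not used here, and their part in these differences was not tested. Nor was signal shared between close relatives such as KCS5 and KCS6.

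**Figure D3:**
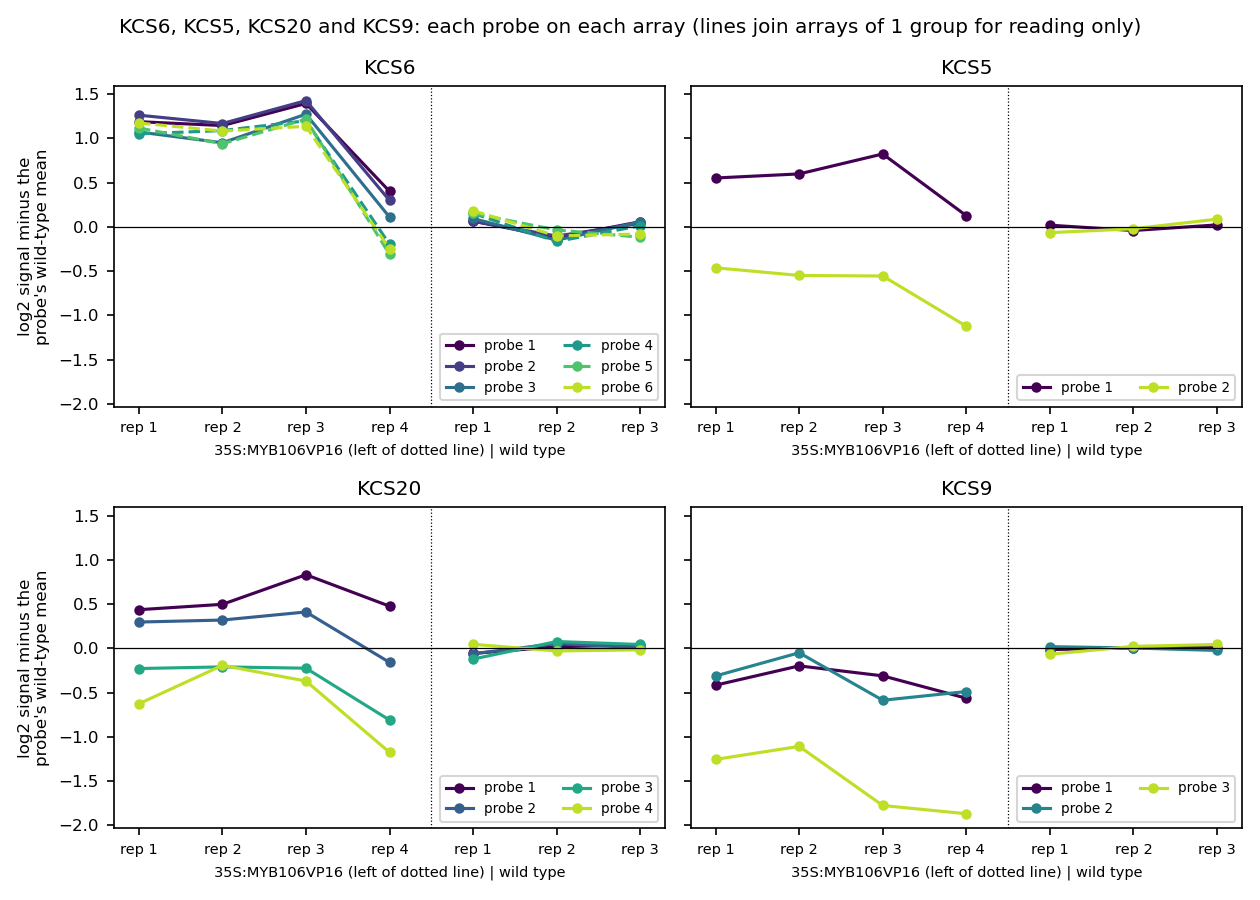
Log2 signal of each probe of KCS6, KCS5, KCS20 and KCS9 minus that probe's wild-type mean (y axis), array by array, with 35S:MYB106VP16 left of the dotted line and wild type right of it; probe 1 is the brightest of its gene, and dashed lines in the KCS6 panel are probes named after NM_105524. The KCS6 probes run together and drop on replicate 4, while the KCS5, KCS9 and KCS20 probes fan out in 35S:MYB106VP16, dimmest probe lowest on most arrays.

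Changes of the genes relative to each other do not depend on the scaling of the arrays, so 4 pairs were compared within arrays by their brightest probes, with exact two-sided permutation tests adjusted over the 4 pairs. The smallest p that 4 against 3 arrays allow is 0.0286. KCS1 relative to KCS6 was 2.92-fold lower in 35S:MYB106VP16 (log2 difference of -1.55; exact permutation adjusted p = 0.0381), with every transgenic array below every wild-type array. KCS9 relative to KCS8 was 1.94-fold lower (log2 -0.96; exact permutation adjusted p = 0.0381). By these probes KCS1 and KCS9 were already lower, and KCS6 and KCS8 already higher, each without overlap between the groups. KCS1 and KCS6 also had the largest fall (-0.51) and the largest rise (1.03) by brightest probe among the genes described. Separation of the groups in both pairs was thus bound to follow, and their p-values are not evidence apart from the single-gene differences. By brightest probes, KCS2 relative to KCS20 was 1.56-fold lower (log2 -0.64; exact permutation adjusted p = 0.0381). KCS6 relative to KCS5 was 1.42-fold higher without passing (log2 0.51; exact permutation adjusted p = 0.0571), also with no overlap between the groups. With normexp background subtraction the first 3 stood at adjusted p = 0.0571, 0.0571 and 0.0857 by the same exact permutation test, with directions as before. With the mean over each gene's probes, an alternative added after seeing the data, none of the 4 passed (exact permutation adjusted p = 0.0762 to 0.857). KCS2 relative to KCS20 then differed by -0.07 with overlapping groups, since the probes of KCS20 differ in direction, so no direction is given for that pair.

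The direction of some changes rested on how arrays were scaled. Relative to the 75th percentile, the median difference of all probes moved by scaling to 0.11 with each array's median, to 0.20 in the authors' series table and to -0.57 with the 7 bright spike-in transcripts. Of the probes called, 49.8% were higher with the 75th percentile, 62.8% with the median, 72.4% in the authors' series table and 9.46% with spike-in scaling. The spike-ins, RNAs added at labelling, were themselves 0.15 to 0.84 higher on the transgenic slide. KCS1, all 6 probes of KCS6, all 3 of KCS9, KCS3, KCS8, KCS11 and the dimmer probe of KCS5 kept their sign under each of these scalings and with quantile normalization. KCS2, KCS4 and the brighter probes of KCS5 and KCS20 did not.

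**Figure D4:**
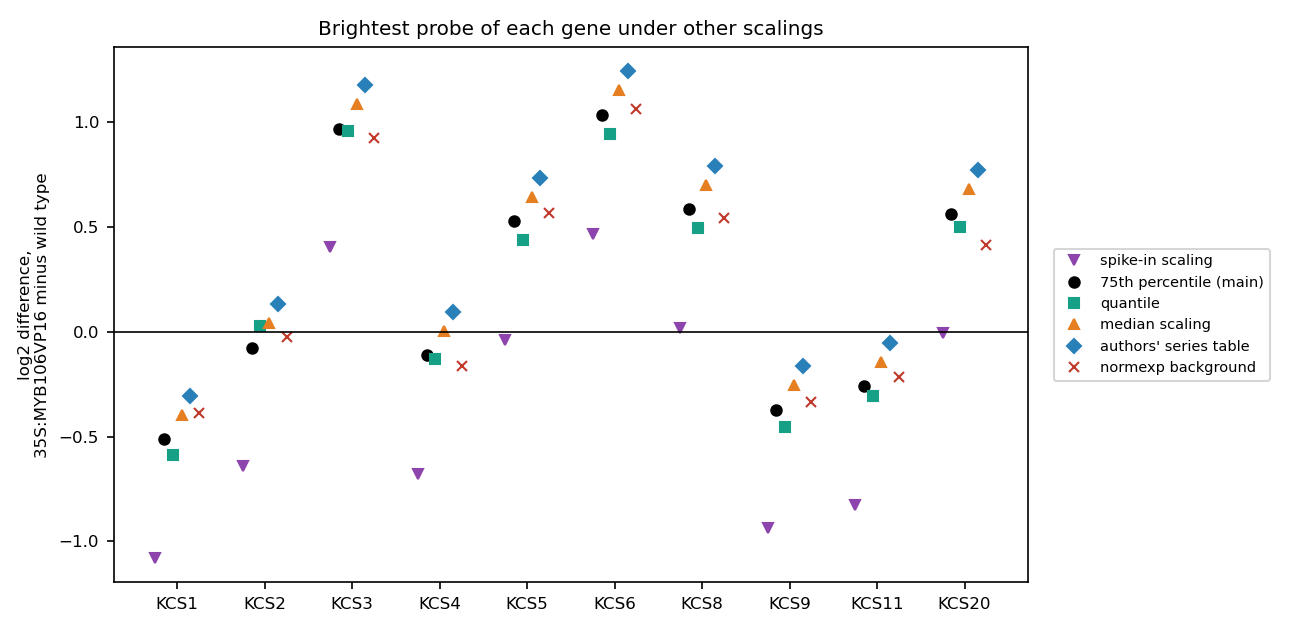
Log2 difference of the brightest probe of each gene, 35S:MYB106VP16 minus wild type (y axis), under 6 ways of scaling or background correction (symbols). KCS6 and KCS3 stay above 0 and KCS1, KCS9 and KCS11 below it, while spike-in scaling (triangles pointing down) places KCS5 and KCS20 just below 0.

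For the rest of the pathway each gene was taken by its brightest probe and tested among 20509 genes, where limma called 52.9%, 28.1% as higher and 24.8% as lower. By that rule 5 of the 10 KCS genes were higher, 3 were lower and 2 were not called. When a gene's probes were averaged 3 were higher, KCS3, KCS6 and KCS8, and 3 lower. By brightest probe, 3 were higher without 35S:MYB106VP16 replicate 2, wild type replicate 1 or wild type replicate 2, and 1 was lower without wild type replicate 3. Of all probes, 8328, 8456 and 7129 were higher without the first 3 of these arrays, against 8915 with all arrays. Fewer of all probes were also lower without wild type replicate 3.

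Of the other 11 KCS genes, 8 were tested, 2 were higher, 0 were lower (also 0 at an unadjusted limma p under 0.05) and 6 were not called. Their median difference was 0.14, against 0.02 for all genes. KCS12 was 3.72-fold higher (log2 1.90 ± 0.22 SE; limma adjusted p = 0.000605), a larger difference than for any of the 10 genes described. KCS10, also known as FIDDLEHEAD and needed to keep organs from fusing, was 1.77-fold higher (limma adjusted p = 0.00866). KCS7, KCS15 and KCS21 were too dim to be tested, and KCS18, the seed oil synthase FAE1, was well above background on 1 of 4 transgenic and 2 of 3 wild-type arrays.

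Of 8 other elongase subunits and partners, 7 were on the array, 4 were higher, 1 was lower and 2 were not called. KCR2, a relative of the reductase KCR1, was 2.64-fold higher (log2 1.40 ± 0.25 SE; limma adjusted p = 0.00313), and the dehydratase PAS2 1.92-fold (limma adjusted p = 0.00221). KCR1 itself was 1.34-fold higher (limma adjusted p = 0.0372). CER2, a BAHD-type protein that lets KCS6 make longer chains, was 1.33-fold lower (limma adjusted p = 0.0197), and its relative CER26 (AT4G13840) 1.65-fold higher (limma adjusted p = 0.0249). CER2 was not called with median scaling or in the authors' series table.

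Of 7 genes that supply acyl-CoA or malonyl-CoA, 3 were higher, 1 was lower and 3 were not called. LACS1 and LACS2, which activate long-chain fatty acids for wax and cutin, were 2.28-fold and 2.27-fold higher (limma adjusted p = 0.00274 and 0.000515). FATB, the thioesterase that releases saturated fatty acids from the plastid, was 1.66-fold lower (limma adjusted p = 0.00151). Of 5 genes that turn very-long-chain acyl-CoA into wax, 3 were higher, 1 was lower and 1 was not called. The wax ester synthase WSD1 was higher (log2 3.18; limma adjusted p = 0.000785), with 1 of the 3 wild-type arrays not well above background. The reductase CER4 was 4.45-fold higher (limma adjusted p = 0.00155). CER1 was 2.46-fold higher (limma adjusted p = 0.00826). CER3 was the gene called lower, by 2.10-fold (log2 -1.07; limma adjusted p = 0.000143).

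Of the tested suberin and ceramide synthase genes, 0 were higher in limma, also at an unadjusted p under 0.05. Of 5 suberin genes on the array, 2 were lower, CYP86B1 (1.59-fold; limma adjusted p = 0.0122) and RWP1 (also ASFT, 1.54-fold; limma adjusted p = 0.003), and 3 were not called, with a median difference of -0.62. Of 3 ceramide synthase genes, which build sphingolipids, LAG13 (also LOH3) was 1.52-fold lower (limma adjusted p = 0.000367), and LOH2 differed by -0.08 (limma adjusted p = 0.366). Of 7 regulators known to act on wax genes, 3 were higher, MYB106 included, 2 were lower and 2 were not called. SHN1, an ERF factor that activates cuticle genes, differed by 2.87 (limma adjusted p = 0.00211), with 2 of the 3 wild-type arrays well above background. MYB94 was also higher (log2 0.33, limma adjusted p = 0.0374). The regulators called lower were MYB16 (log2 -1.23, limma adjusted p = 0.00287) and MYB30 (log2 -0.54, limma adjusted p = 0.00776). MYB96, an activator of KCS genes under drought, differed by -0.31 without passing (limma adjusted p = 0.0669). With spike-in scaling, 5 suberin genes, 3 ceramide synthase genes and 4 other KCS genes were lower. That scaling also called 21382 of all 33215 tested probes lower.

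**Figure D5:**
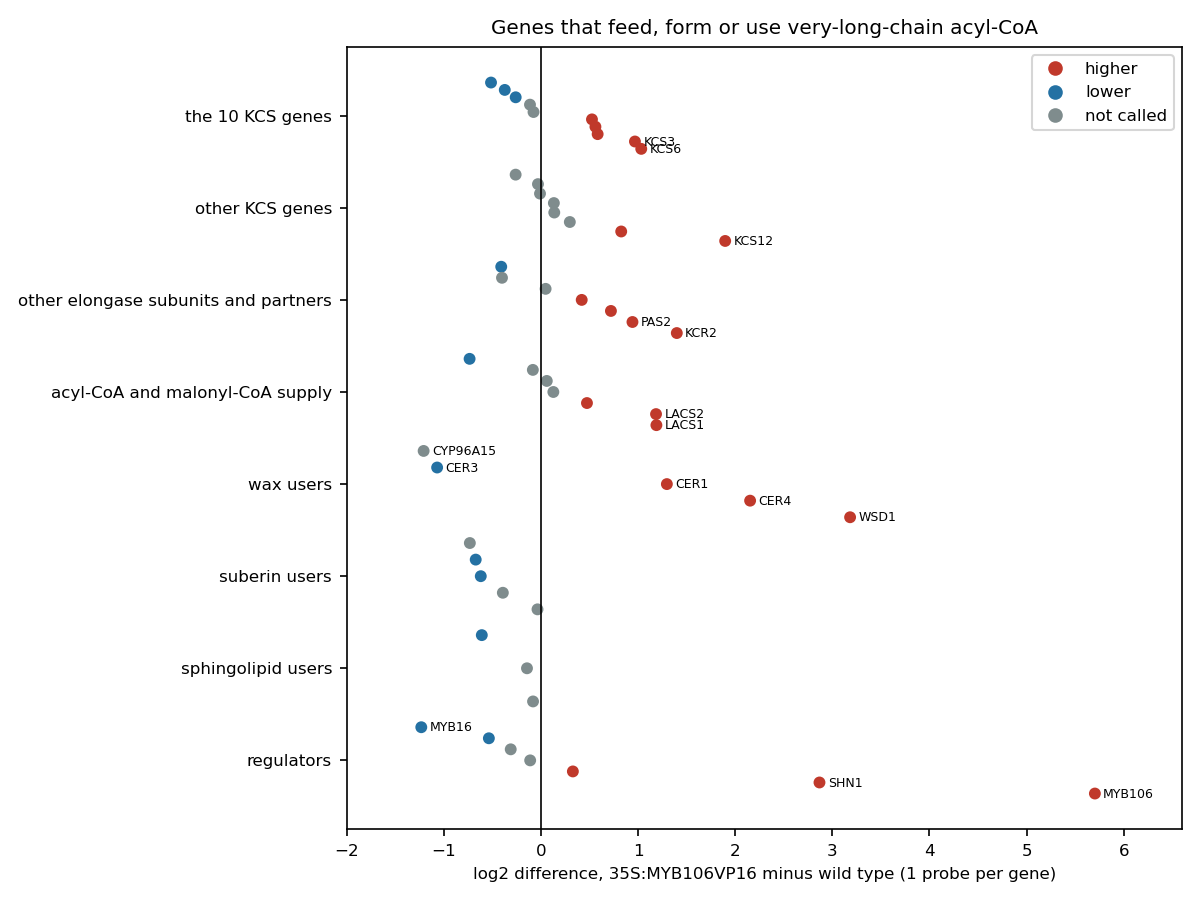
Log2 difference of each tested gene, 35S:MYB106VP16 minus wild type (x axis), by its brightest probe, in rows for the 10 KCS genes and the 7 lists of other genes; red is called higher, blue lower and grey not called. Genes beyond 0.9 in absolute value are named, and the wax users reach 3.18 while the suberin and sphingolipid rows hold no point above 0.

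Epidermal markers differed between the groups too. Of 4 such genes 2 were higher, LP1 (also LTP1, log2 0.62) and PDF1 (0.79). ATML1 was lower (-0.74), and PDF2 was not called (-0.14). The log2 of the summed relative signal of all 4 was 5.27 to 5.51 in 35S:MYB106VP16, against 4.92 to 5.10 in wild type. LP1 alone stood at 4.75 to 5.12 and 4.19 to 4.45, so the sum mostly follows that gene. Of 6 leaf and photosynthesis markers 1 was lower, CA1 (log2 -0.47, limma adjusted p = 0.00661), and 5 were not called. Their median difference was -0.14, with sums of 8.46 to 8.80 in 35S:MYB106VP16, against 8.68 to 8.77 in wild type. For the root endodermis, 5 markers gave 0 calls in limma (1 at an unadjusted p under 0.05), with sums of 0.95 to 1.65 in 35S:MYB106VP16, against 0.55 to 1.14 in wild type. Of 4 flower markers 1 was higher, PI (log2 1.18), while AP1, AP3 and AG differed by -0.39, -0.66 and -1.52 without passing. Flower sums were -0.01 to 0.80 in 35S:MYB106VP16, against -0.91 to 0.37 in wild type, with overlap between the groups. In whole seedlings, fewer cells of a type and less RNA per cell cannot be told apart, and the part of tissue make-up in the KCS differences was not tested.

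Among 20499 other tested genes, the profile over the 7 arrays closest to that of KCS6 was that of AT1G11300 (EGM1), with a root mean square difference of 0.0849 log2 units after each profile was centred. CDPK1 and GGH3 followed at 0.113 and 0.114. For KCS1, the member with the largest fall by its brightest probe, the closest profiles were those of EMB3143 (0.0384), AT4G25290 (0.0464) and AT5G66530 (0.0484).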

How the data were processed

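Total RNA was labelled with Cy3 and hybridised to single-colour Agilent arrays, per the labels. The deposited intensity values come from Agilent Feature Extraction, version 9.1.3.1 per the submitters' processing notes, as an extended dynamic range extraction per the file headers. The authors' deposited series table holds the same intensity divided by 1 constant per group (1042 for 35S:MYB106VP16, 1238 for wild type) on a linear scale, with column medians of 0.331 to 0.438. The choice of constants has no description in the sources used here. That table served as an alternative.

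Outlier spots were removed, replicate spots of a probe averaged, and log2 of the processed signal taken relative to the array's 75th percentile. A probe was tested where well above background on at least 3 arrays, with limma 3.58.1 (lmFit, eBayes; R 4.3.3), genotype as the only term. The fit was tested on simulated data. RefSeq transcripts of assembly TAIR10.1 gave the gene names, and no coordinates are printed because the files name no genome build. Alternatives were normexp (offset 50, on median signals), median, quantile and spike-in scaling, other filters, outlier spots kept, a test against 1.5-fold, a replicate block, and each array left out. The genes named are the 10 members, MYB106, in each list the 2 called genes with the largest change, other list genes with their list's count, and the nearest profiles. The members and lists were chosen with earlier results of these data known. The number of arrays limits the precision.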

Additional observations from a re-analysis of the deposited data

Results flagged for a closer look

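In 5 of the 22 probes, 1 of the 4 35S:MYB106VP16 arrays lay far from the other 3 by Dixon's test, and chance gives about 1 in 20; probes of a gene share their RNA. Replicate 4 was the low array in 4 of them. The dimmer KCS5 probe stood there at -2.36, against -1.80 to -1.70 on the other transgenic arrays. KCS6 probe A_84_P862370 stood at 0.64, against 1.89 to 2.04, and KCS6 probe A_84_P804896 at -3.24, against -1.91 to -1.82. KCS20 probe A_84_P807577 stood at -1.88, against -1.30 to -1.28. Replicate 3 was the high array for the brightest KCS20 probe, at 2.47 against 2.08 to 2.14. All are levels on the log2 scale used above.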

How the results depend on the processing

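Under alternatives, 374 values of the 22 probes were computed, of which 283 matched in direction and call, 59 lost a call, 21 gained one and 11 changed sign. The last were KCS2's brighter probe (0.041 with median scaling, 0.027 with quantile normalization, 0.13 in the authors' series table, 0.15 without wild type replicate 1), its dimmer probe (0.060 in that table and 0.065 without that array), KCS4 (0.0048 with median scaling, 0.095 in that table), and, with spike-in scaling, the brighter KCS5 probe (-0.040) and 2 KCS20 probes (-0.0043 and -0.35). The cause was not tested, except that median, spike-in and the authors' scaling shift all probes alike, and leaving out an array leaves fewer samples.

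KCS probes, 7 higher and 6 lower, became 8 and 3 with median scaling, 10 and 1 in the authors' series table, 0 and 11 with spike-in scaling (limma; also 0 and 11 at an unadjusted p under 0.05), and 0 and 1 tested against 1.5-fold with limma's treat (1 and 1 unadjusted). Leaving out each array gave 4 to 11 higher and 3 to 7 lower. The same range for KCS2 was -0.20 to 0.15 (brighter probe) and -0.28 to 0.065 (dimmer probe). All probes, 8915 higher and 8997 lower, became 2233 and 21382 with spike-in scaling and 1463 and 1497 against 1.5-fold, with 4280 lower in the authors' table; leaving out each array gave 6534 to 8579 and 6872 to 8912.

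KCS genes by brightest probe, 5 higher and 3 lower, became 3 higher with the mean over probes, 1 lower with median scaling, 0 lower in the authors' table (limma; 1 unadjusted), and 0 higher and 5 lower with spike-in scaling (limma; 0 and 5 unadjusted); leaving out each array gave 3 to 5 and 1 to 3. Of all probes called, 49.8% were higher with the main scaling. That share was 62.8% with median scaling, 72.4% in the authors' table and 9.46% with spike-in scaling. The shift with scaling is thus not one of the KCS genes alone. Spike-in scaling moved the lists to 1 higher and 4 lower for other KCS genes, 1 and 3 for elongase subunits, 3 lower for acyl-CoA supply, 5 for suberin, 3 for sphingolipids and 4 for regulators. In limma, elongase subunits had 0 lower with median scaling (1 unadjusted) and in the authors' table (0 unadjusted), where suberin and regulators had 1 each.

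The within-array differences lost their call with normexp: KCS2 minus KCS20 stood at -0.44, KCS1 minus KCS6 at -1.45 and KCS9 minus KCS8 at -0.88. They also lost it with the mean over each gene's probes, added after seeing the data, at -0.067, -1.39 and -1.33 in the same order. Leaving out each array, which allows no p of 0.05 or less in these exact tests, gave -0.78 to -0.39, -1.74 to -1.44 and -1.02 to -0.86, and 0.46 to 0.58 for KCS6 minus KCS5.

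Replicate numbers did not pair the samples: same-numbered arrays deviated together at r = 0.18, -0.03 and -0.08. With a replicate block, 11 KCS probes were higher and 3 lower, against 7211 and 7714 of all probes. 35S:MYB106VP16 replicate 4 has no wild-type partner, so the blocked differences equal those without that array, and the block and its loss cannot be told apart. No fit used the slide, because slide and genotype coincide.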
